A study of Mus musculus with 8 samples.

Results

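The enzymes described here write and erase methyl marks on histone lysines or remove acetyl groups from histones and other proteins. The genes were chosen by symbol: KDM demethylases, KMT and SETD methyltransferases, EZH methyltransferases, HDAC deacetylases and sirtuins, each with a digit after the family name, without pseudogenes and opposite-strand transcripts. The rule gave 53 genes among the 18835 genes with values. Kdm4d and Kdm4dl also carry such names but have no values in the deposited table and were not analysed here.

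RNA was sequenced from heart tissue of 8 male BALB/cAJcl mice aged 10 weeks, all immunized with cardiac myosin, which brings on myocarditis of autoimmune origin (immune cells inflame the heart wall). The VEGF-C group (n = 4) was injected intraperitoneally with 1 µg per day of VEGF-C C156S, a mutant growth factor for lymphatic vessels that signals by way of the receptor VEGFR-3, and the PBS group (n = 4) received PBS. Injections ran from day 7 to day 10 after immunization, and hearts were taken in week 3. The series title speaks of lymphatic endothelial cells, but the labels give heart as the tissue of every sample. No healthy or untreated hearts are among the samples, so the comparison is of treated with control mice that both have the disease.

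Histone methyltransferases of the SET domain type add methyl groups to lysines, those of histone H3 lysine 4 being linked to active promoters and those of H3 lysine 27, placed by the Polycomb complex PRC2, to silenced genes. Demethylases of the LSD and JmjC types take the marks off. Zinc-dependent histone deacetylases fall into classes, of which class IIa shuttles out of the nucleus on kinase signals and in heart muscle restrains MEF2 transcription factors. Sirtuins use NAD and work in the nucleus, the cytosol or mitochondria.

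Whole heart libraries mix cells. Recovered read totals were between 53.7 M and 65.2 M reads in VEGF-C and between 61.7 M and 76.8 M reads in PBS, and the share of reads from mitochondrially encoded genes was between 9.53% and 11.8% in VEGF-C and between 6.70% and 10.2% in PBS. The summed normalized reads of 8 cardiomyocyte markers were between 3696810 and 4136930 in VEGF-C and between 2717910 and 3629300 in PBS, so these ranges did not overlap. Of the 8, 7 fold changes were positive and 1 negative (median 0.38), and Actn2 alone passed, as higher. Actc1 (0.48 ± 0.16) and Ttn (0.50 ± 0.16) did not pass, though their groups did not overlap. Myh6, with the most reads, overlapped between the groups (0.34 ± 0.28), and Tnnt2 stood at -0.01 ± 0.22. Those of 5 fibroblast markers were also apart, between 463582 and 547817 in VEGF-C and between 306928 and 433919 in PBS, but 1 of the 5 passed, Col1a1 (0.69 ± 0.14), and Dcn (-0.12 ± 0.15) and Pdgfra (-0.21 ± 0.09) had negative fold changes. Summed leukocyte markers overlapped, between 115236 and 167156 in VEGF-C and between 112268 and 208808 in PBS, with 3 of 9 lower, Ptprc and Cd79a among them, and so did those of blood vessel endothelium (5 genes, 0 passing), lymphatic endothelium (5 genes, Flt4 higher) and dividing cells (6 genes, 0 passing). None of the 38 markers had 0 reads in every library. In bulk tissue, fewer cells of a type and less RNA per cell cannot be told apart, and the part of cell makeup in the results was not tested.

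Most of the histone enzyme genes did not pass the test between VEGF-C and PBS hearts. Of the 53 genes, 7 passed an adjusted p of 0.05 in limma, a linear model fitted to the log2 values of all genes (13.2%, against 15.7% of all genes tested, a nearby share). Sirt7, Hdac10, Kmt5c, Kdm5d and Setd4 were lower in VEGF-C, and Sirt2 and Setd3 were higher. By direction, 2 of 53 passed as higher and 5 of 53 as lower, against 7.05% and 8.61% of all genes. The median log2 fold change of VEGF-C over PBS was 0.0044 over the 53 genes and 0.0013 over all genes, and 28 fold changes were positive and 25 negative. Scaling by library totals instead of size factors shifted the median over all genes by -0.19 (log2), and then 20 of the 53 passed as lower and 0 as higher, against 19.0% and 1.29% of all genes under that scaling. Under upper-quartile scaling the split was 6 lower to 0 higher, against 10.2% and 4.23% of all genes. Without VEGF-C replicate 1 or VEGF-C replicate 3, 4 of the 53 passed, while the share of all genes was 10.4% and 8.94%. The authors' deposited table puts 10 of the 53 below the same threshold, against 21.7% of all genes with such a value. There 3 of 53 were higher and 7 of 53 lower, against 10.2% and 11.4% of all genes with such a value. All 7 genes named above are among the 10.

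**Figure D1:**
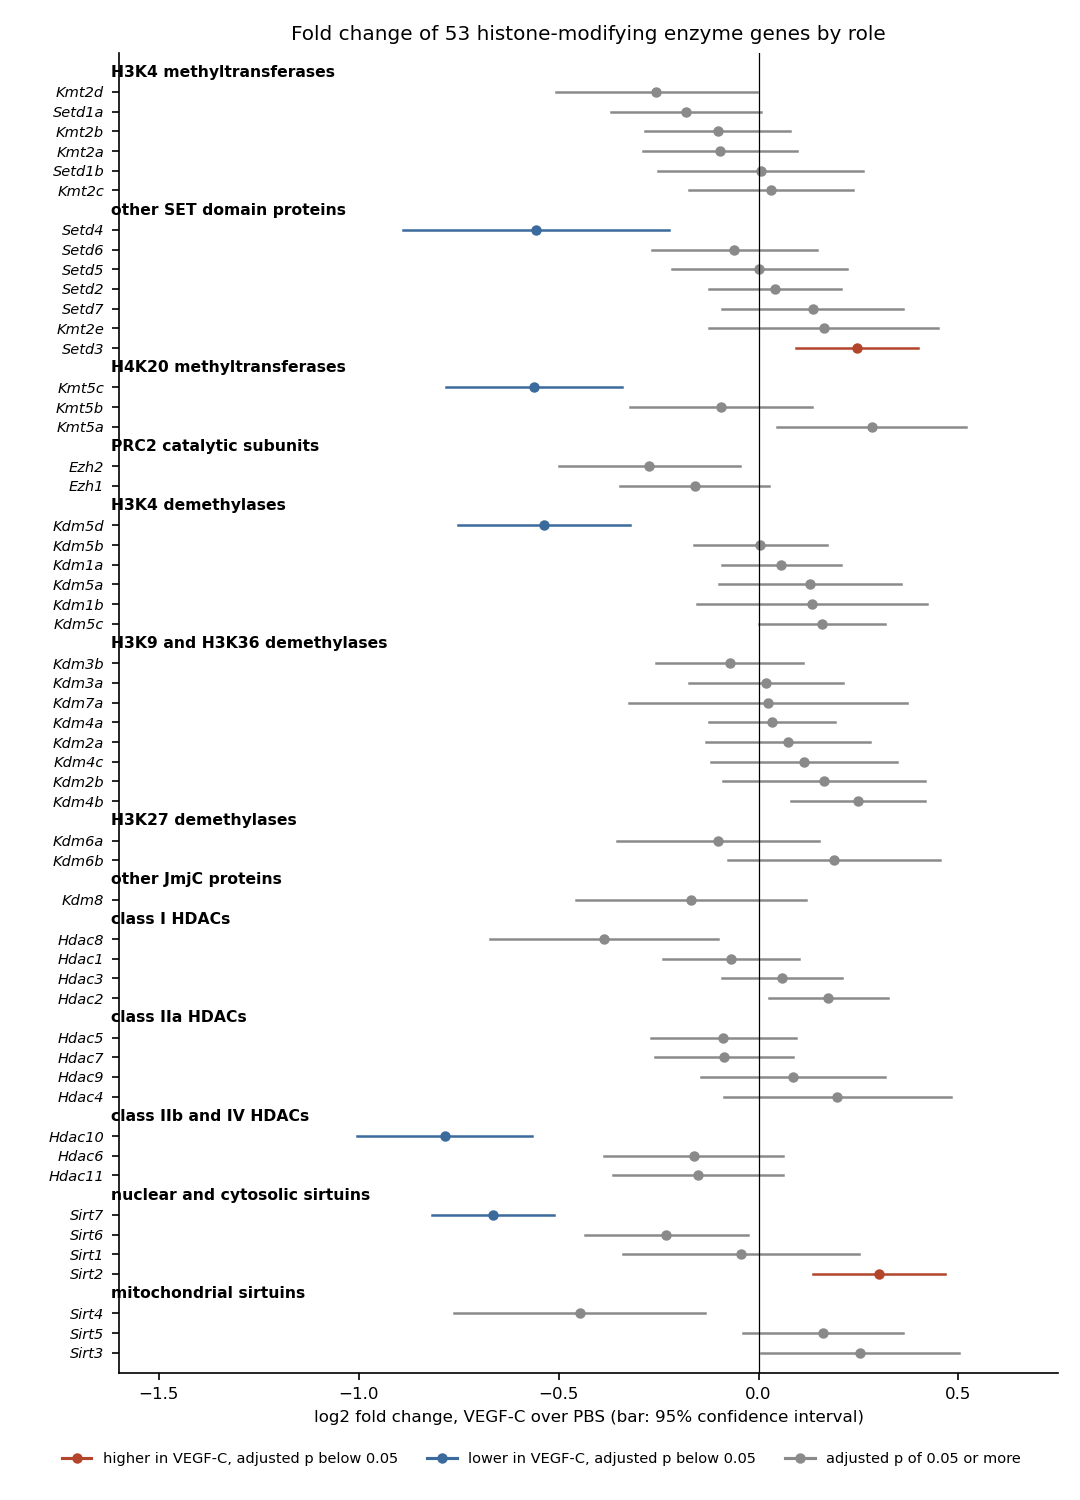
Log2 fold change of VEGF-C over PBS (x axis) for each of the 53 genes, ordered by role, with points for the limma estimate and bars for its 95% confidence interval. Of the 7 coloured genes, 5 lie left of 0 and 2 right of it, and 41 of the 46 grey genes have intervals wholly within ±0.5.

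Promoter sequence is shown for 3 of the lower genes and 1 higher gene, since promoters are where a shared element of genes that move together would be sought. RefSeq promoters (build GRCm38.p6, 250 bases before to 50 after a transcription start) were matched by symbol for 42 of the 53 genes, with 58 promoters; Hdac10 is one of those not matched. Each sequence below runs 5′ to 3′ on the strand of its gene, and capitals mark a match, on either strand, to any of 5 motifs. These were the TATA box core, spelled TATAAA; the CCAAT box, spelled as its name; the GC box, spelled GGGCGG; the motif of ETS factors, spelled CCGGAAGT; and the E-box, spelled CACGTG. None contains another.
Sirt7 (chr11:120624965-120625264, minus strand): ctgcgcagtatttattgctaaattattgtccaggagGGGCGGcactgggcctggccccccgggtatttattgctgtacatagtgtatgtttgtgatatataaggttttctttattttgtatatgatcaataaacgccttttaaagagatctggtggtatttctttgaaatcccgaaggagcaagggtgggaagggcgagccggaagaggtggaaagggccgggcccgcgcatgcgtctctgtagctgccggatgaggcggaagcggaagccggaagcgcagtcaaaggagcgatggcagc
Kmt5c (chr7:4739877-4740176, plus strand): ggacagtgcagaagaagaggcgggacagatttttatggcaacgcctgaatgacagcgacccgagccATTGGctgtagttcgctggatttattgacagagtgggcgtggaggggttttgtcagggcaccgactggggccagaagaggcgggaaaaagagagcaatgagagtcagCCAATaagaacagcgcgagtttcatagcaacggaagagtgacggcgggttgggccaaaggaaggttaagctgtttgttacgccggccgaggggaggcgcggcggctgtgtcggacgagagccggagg
Kdm5d (chrY:897538-897837, plus strand): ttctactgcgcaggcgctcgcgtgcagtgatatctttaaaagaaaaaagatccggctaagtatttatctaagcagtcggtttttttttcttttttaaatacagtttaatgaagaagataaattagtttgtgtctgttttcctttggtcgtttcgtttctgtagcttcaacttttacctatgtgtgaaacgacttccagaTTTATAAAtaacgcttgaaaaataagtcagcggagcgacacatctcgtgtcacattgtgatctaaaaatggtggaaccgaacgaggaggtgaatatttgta
Sirt2 (chr7:28766502-28766801, plus strand): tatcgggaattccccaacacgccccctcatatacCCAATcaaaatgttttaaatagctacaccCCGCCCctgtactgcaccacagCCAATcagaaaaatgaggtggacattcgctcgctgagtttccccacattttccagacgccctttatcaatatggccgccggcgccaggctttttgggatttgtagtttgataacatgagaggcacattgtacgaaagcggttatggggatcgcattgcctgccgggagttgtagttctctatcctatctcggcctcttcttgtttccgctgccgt

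The 4 promoters differ in makeup. The Sirt7 window holds a GC box, Kmt5c holds 2 CCAAT boxes, 1 on each strand, and Kdm5d is AT-rich with a TATA core and a GC content of 36.7%. The Sirt2 window holds 2 CCAAT boxes and a GC box. The windows of Sirt7, Kmt5c and Kdm5d have none of the 5 motifs in common, while that of Setd4, the other lower gene matched, holds a CCAAT box, as Kmt5c does, and the ETS motif. Over all 58 promoters of the histone enzyme genes the median number of CG dinucleotides was 22.5, against 7.0 over 32544 promoters of the table, and GGGCGG was found in 60.3% of them, against 35.9% of all promoters. TATAAA was found in 5.17%, against 13.6%, and CCAAT in 39.7%, against 37.4%. Of the 7 promoters of the 6 matched genes that passed, 2 of them nearby starts of Setd3, CCAAT was found in 5 (71.4%) and GGGCGG in 4 (57.1%). Over the 58 promoters the ETS motif was found in 5.17%, against 3.92%, and the E-box in 6.90%, against 7.17%. The promoters of the table belong to 26742 genes, more than the 18835 with values here. The shares were not set against other genes with values, so they are not shown to be particular to histone enzyme genes. A match is a string of letters and not a measured binding site.

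Sirtuins held both the clearest decrease and an increase. Sirt7 (ENSMUSG00000025138), a nuclear and nucleolar deacetylase of histone H3, had 1258, 1276, 1350 and 1264 normalized reads in VEGF-C replicates 1 to 4, against 1941, 2034, 2158 and 2033 in PBS replicates 1 to 4. Every VEGF-C library lay below every PBS library. Its log2 fold change was -0.66 ± 0.07 (SE; limma adjusted p = 0.000428), and its level fell by 36.9%. Sirt2 (ENSMUSG00000015149), the mainly cytosolic sirtuin that deacetylates tubulin, had 8401, 7988, 8485 and 7922 normalized reads in VEGF-C, against 6330, 7393, 6174 and 6765 in PBS. Its groups did not overlap either, and its log2 fold change was 0.30 ± 0.07 (SE; limma adjusted p = 0.0230). That call was lost without PBS replicate 3, VEGF-C replicate 1 or VEGF-C replicate 3, and with library totals (0.11, limma adjusted p = 0.310), upper-quartile factors (0.25, limma adjusted p = 0.0523) or no variance trend (limma adjusted p = 0.0513).

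Within each heart the 2 genes therefore stood differently to one another: the log2 value of Sirt2 minus that of Sirt7 was between 2.64 and 2.74 in VEGF-C and between 1.51 and 1.86 in PBS. This difference combines the 2 changes above and is not a further test. Sirt6 (ENSMUSG00000034748), a nuclear deacetylase of histone H3 that guards genome stability, had 699, 696, 710 and 628 normalized reads in VEGF-C, against 750, 833, 751 and 879 in PBS. The groups were apart, but the fold change of -0.23 ± 0.09 did not pass (limma adjusted p = 0.113). Sirt1, the nuclear sirtuin studied most, had a fold change of -0.04 with a 95% confidence interval of -0.34 to 0.25.

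The 3 mitochondrial sirtuins did not pass. Sirt4 (ENSMUSG00000029524), a mitochondrial regulator of amino acid and lipid use, had 708, 783, 604 and 588 normalized reads in VEGF-C, against 901, 959, 723 and 1097 in PBS. PBS replicate 3 lay inside the VEGF-C range, and the fold change was -0.45 ± 0.14 (limma adjusted p = 0.0571). Without PBS replicate 3 it was -0.56 (limma adjusted p = 0.0290), and without VEGF-C replicate 2 it was -0.52 (limma adjusted p = 0.0492). It also passed with library totals, upper-quartile factors and the robust variance fit. The authors' deposited table gives Sirt4 an adjusted p of 0.0191. Sirt3, the main mitochondrial deacetylase, had a fold change of 0.25 ± 0.11 and Sirt5, which removes succinyl groups, of 0.16 ± 0.09, and both groups overlapped in each gene.

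**Figure D2:**
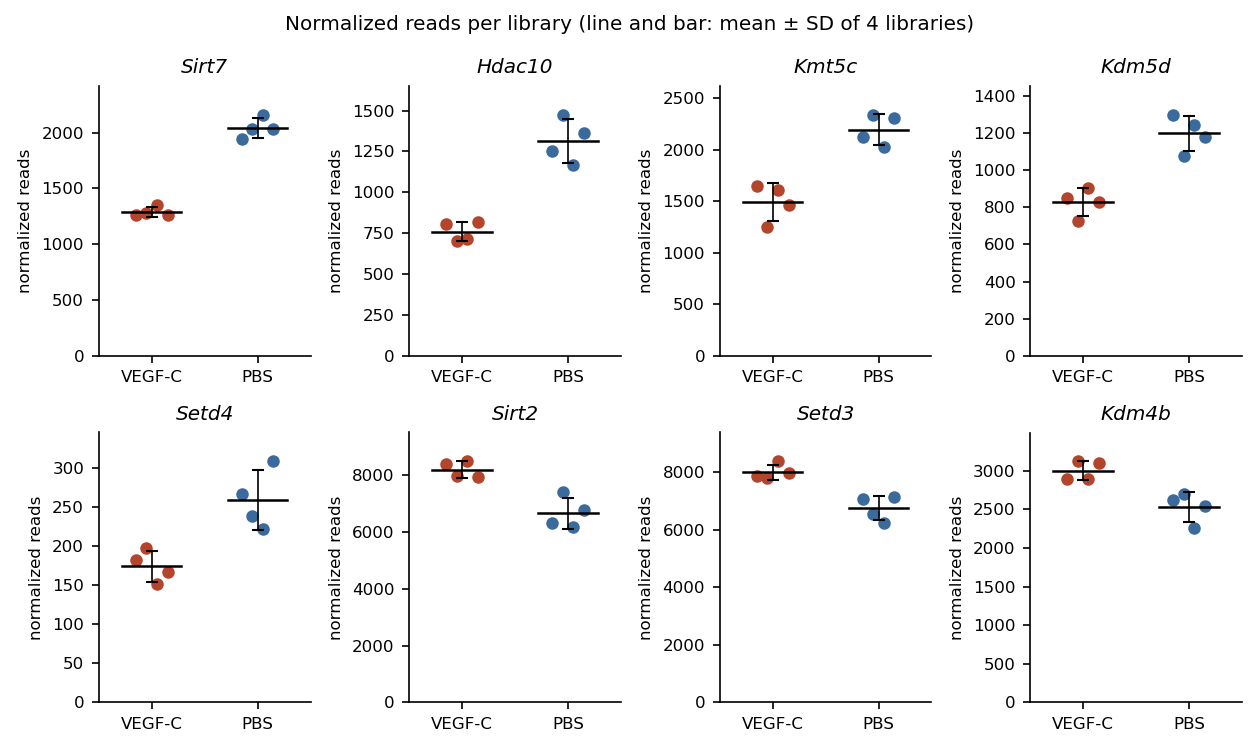
Normalized reads (y axis, from 0) of the 7 genes that passed and of Kdm4b, whose adjusted p was 0.0502, in each VEGF-C and PBS library; points are libraries, and lines with bars are the mean and SD of 4. In each of the 8 genes all VEGF-C points lie on one side of all PBS points.

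Among the zinc-dependent deacetylases 1 of 11 passed (9.09%, against 15.7% of all genes). Hdac10 (ENSMUSG00000062906), a class IIb enzyme known as a polyamine deacetylase, had 804, 701, 716 and 818 normalized reads in VEGF-C, against 1252, 1473, 1167 and 1362 in PBS. The groups were far apart, and the log2 fold change of -0.78 ± 0.10 (SE; limma adjusted p = 0.00111) was the largest in size of the 53. Its level fell by 41.9%. The other class IIb enzyme, the tubulin deacetylase Hdac6, had a fold change of -0.16 ± 0.10, and the class IV enzyme Hdac11 of -0.15 ± 0.10, neither passing.

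Class I deacetylases, the catalytic cores of nuclear corepressor complexes, went in both directions without passing. Hdac8 (ENSMUSG00000067567), which acts on cohesin, had 259, 273, 300 and 294 normalized reads in VEGF-C, against 326, 399, 429 and 329 in PBS. Hdac2 (ENSMUSG00000019777) had 3311, 3385, 3678 and 3561 in VEGF-C, against 2985, 3031, 3036 and 3289 in PBS. Both pairs of groups were apart, lower for Hdac8 (-0.39 ± 0.13, limma adjusted p = 0.0674) and higher for Hdac2 (0.17 ± 0.07, limma adjusted p = 0.101). The authors' deposited table gives Hdac8 an adjusted p of 0.0367. Hdac1 (-0.07 ± 0.08) and Hdac3 (0.06 ± 0.07) overlapped, with 95% confidence intervals of -0.24 to 0.10 and -0.09 to 0.21. The pseudogene Hdac1-ps, left out by the rule, averaged 269 normalized reads in VEGF-C and 319 in PBS; Hdac1 averaged 2378 in VEGF-C and 2487 in PBS. Reads shared between the pair were not measured.

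Class IIa deacetylases, the signal-responsive ones, showed no difference that passed. Fold changes were -0.09 ± 0.08 for Hdac5, -0.09 ± 0.08 for Hdac7, 0.09 ± 0.10 for Hdac9 and 0.20 ± 0.13 for Hdac4. For Hdac4, VEGF-C replicate 4 stood apart, with 2726 normalized reads against 1756 to 2023 in the other VEGF-C libraries and 1619 to 1921 in PBS; without that library the fold change was 0.07. The intervals of Hdac5 and Hdac7 reached from -0.27 to 0.09 and from -0.26 to 0.09. Per kilobase of exon (lengths from GENCODE M21, an annotation of another build), Hdac7 and Hdac5 were the most abundant class IIa genes, at 1081 ± 79.1 and 906 ± 69.8 normalized reads per kilobase (SD, n = 8), and Hdac4 (124 ± 20.9) and Hdac9 (90.6 ± 9.2) the least.

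Of the 3 methyltransferases of histone H4 lysine 20, 1 passed (33.3%, against 15.7% of all genes). Kmt5c (ENSMUSG00000059851), which places the trimethyl mark at heterochromatin, had 1652, 1252, 1609 and 1462 normalized reads in VEGF-C, against 2122, 2340, 2026 and 2306 in PBS. The groups did not overlap, and the log2 fold change was -0.56 ± 0.10 (SE; limma adjusted p = 0.00589). Kmt5a, which places the monomethyl mark, had a fold change of 0.28 ± 0.11 (limma adjusted p = 0.0952), and its groups overlapped: 12087, 11978, 9373 and 10620 normalized reads in VEGF-C, against 9352, 9860, 7653 and 9301 in PBS. Kmt5b, a close relative of Kmt5c, had a fold change of -0.09 ± 0.10. Kmt5a was the most abundant of the 53 genes per kilobase of exon (1890 ± 280 normalized reads, SD, n = 8).

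Of the 6 methyltransferases of H3 lysine 4, 0 passed in limma (15.7% of all genes did) and in the authors' deposited table (21.7% did). At an unadjusted p under 0.05 there was 1. That gene, Kmt2d, an enhancer methyltransferase needed for heart development, had the largest difference, -0.26 ± 0.11 (limma adjusted p = 0.148), with 6412, 6442, 6733 and 7814 normalized reads in VEGF-C, against 8143, 8730, 6600 and 9423 in PBS. The 2 groups overlapped through PBS replicate 3. Without that library the fold change was -0.36 (limma adjusted p = 0.0389). Setd1a (-0.18), Kmt2b (-0.10), Kmt2a (-0.10), Setd1b (0.005) and Kmt2c (0.03) had smaller values. Of the exonic length that GENCODE M21 gives Setd1a, 51.9% lies under another gene model of the same strand, Gm49388, which has no values.

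Other SET domain genes held 1 decrease and 1 increase (2 of 7, 28.6%, against 15.7% of all genes). Setd4 (ENSMUSG00000022948), whose substrates are less settled, had 182, 197, 151 and 167 normalized reads in VEGF-C, against 268, 239, 222 and 309 in PBS, a log2 fold change of -0.56 ± 0.15 (SE; limma adjusted p = 0.0324). It was the least abundant of the 53 per kilobase. Setd3 (ENSMUSG00000056770), a methyltransferase of a histidine of actin and not mainly a histone enzyme, had 7873, 7781, 8370 and 7966 normalized reads in VEGF-C, against 7071, 6550, 6238 and 7146 in PBS, a log2 fold change of 0.25 ± 0.07 (SE; limma adjusted p = 0.0369). The groups were apart in both genes. The call of Setd4 was lost without any 1 of PBS replicates 1, 2 and 4 and VEGF-C replicates 1, 3 and 4, and that of Setd3 without PBS replicate 2, PBS replicate 3 or any 1 VEGF-C library. Setd3 also lost its call with library totals (0.05, limma adjusted p = 0.562), upper-quartile factors (0.19, limma adjusted p = 0.0731) and no variance trend (limma adjusted p = 0.0733). Setd2, which trimethylates H3 lysine 36, had a fold change of 0.04 ± 0.07, Setd7 of 0.14 ± 0.10, Setd6, which methylates the NF-kB subunit RelA, of -0.06 ± 0.09, Setd5 of 0.002 ± 0.10 and Kmt2e, which binds methylated H3 lysine 4, of 0.16 ± 0.13.

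The PRC2 catalytic subunits were both lower in mean and did not pass. Ezh2 (ENSMUSG00000029687), the form of dividing cells, had 529, 611, 645 and 533 normalized reads in VEGF-C, against 657, 766, 686 and 689 in PBS. The groups were just apart, and the fold change was -0.27 ± 0.10 (limma adjusted p = 0.0937). The summed dividing-cell markers were between 5972 and 9649 normalized reads in VEGF-C and between 7455 and 8370 in PBS. Ezh1, the form of resting cells, had a fold change of -0.16 ± 0.08 and overlapped, with VEGF-C replicate 4 (3876) apart from the other VEGF-C libraries (3142 to 3209). Ezh1 had more reads per kilobase than Ezh2 (476 ± 45.2 against 95.8 ± 12.1, SD, n = 8), and within a library the log2 value of Ezh1 minus that of Ezh2 was between 2.31 and 2.85 in VEGF-C and between 2.37 and 2.50 in PBS.

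Of the 17 demethylase genes, 1 passed (5.88%, against 15.7% of all genes). Kdm5d (ENSMUSG00000056673), the Y-linked demethylase of H3 lysine 4, had 850, 724, 903 and 826 normalized reads in VEGF-C, against 1297, 1075, 1244 and 1177 in PBS. The groups did not overlap, and the log2 fold change was -0.54 ± 0.10 (SE; limma adjusted p = 0.00655). Its X-linked relative Kdm5c, of like function, had a fold change of 0.16 ± 0.07 (limma adjusted p = 0.151). The log2 value of Kdm5d minus that of Kdm5c was between -2.60 and -2.39 in VEGF-C and between -1.93 and -1.65 in PBS, which combines these fold changes and is not a further test. Other genes of the Y chromosome, chosen after their values were seen, went different ways: Ddx3y had a fold change of 0.11 ± 0.12, Uty of 0.09 ± 0.18 and Eif2s3y of -1.19 ± 0.34 (limma adjusted p = 0.0413). The other H3 lysine 4 demethylases had fold changes of 0.13 (Kdm1b), 0.13 (Kdm5a), 0.06 (Kdm1a) and 0.004 (Kdm5b).

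Of the demethylases of H3 lysines 9 and 36, 0 of 8 passed (15.7% of all genes did). Their fold changes were positive in 7 and negative in 1, against 9453 positive among all 18835 genes. With library totals those of Kdm2b, Kdm4c, Kdm2a, Kdm4a, Kdm7a and Kdm3a turned negative. With upper-quartile factors those of Kdm4a, Kdm7a and Kdm3a did. An unadjusted p under 0.05 was found for 1, Kdm4b, which was also under an adjusted p of 0.05 in the authors' deposited table (0.0280). Kdm4b (ENSMUSG00000024201) had 2895, 3122, 2891 and 3097 normalized reads in VEGF-C, against 2624, 2697, 2257 and 2541 in PBS. The groups were apart and its adjusted p of 0.0502 in limma missed the threshold narrowly, with a fold change of 0.25 ± 0.08; it passed with the filter on low levels and with the robust variance fit. Kdm2b, which brings a Polycomb complex to CpG islands, stood at 0.16 ± 0.11, Kdm4c at 0.11 ± 0.10, Kdm2a at 0.07 ± 0.09, Kdm4a at 0.03 ± 0.07, Kdm7a at 0.02 ± 0.16, Kdm3a at 0.02 ± 0.09 and Kdm3b at -0.07 ± 0.08. The H3 lysine 27 demethylases Kdm6b, an inflammation-induced gene of macrophages, and Kdm6a had fold changes of 0.19 ± 0.12 and -0.10 ± 0.11. The transcript Kdm6bos, which lies opposite Kdm6b and was left out by the rule, averaged 12.3 normalized reads in VEGF-C and 29.3 in PBS. These are few reads, and it passed as lower with groups apart (-1.06 ± 0.28, limma adjusted p = 0.0304). Kdm6b shares 286 exonic bases with it (4.11% of the exonic length of Kdm6b). Kdm8, a JmjC hydroxylase, had a fold change of -0.17 ± 0.13.

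For the 46 genes that did not pass, fold changes lay between -0.45 and 0.28, and the 95% confidence intervals of 41 lay within ±0.5. The lowest end was -0.76 (Sirt4) and the highest 0.52 (Kmt5a), so changes of this size are not excluded for single genes. Groups did not overlap in 12 of the 53 genes, near the 23.0% of all genes. They were apart as higher in 4 of 53 and as lower in 8 of 53, against 11.5% and 11.6% of all genes. The 12 are the 7 that passed and Kdm4b, Hdac8, Ezh2, Hdac2 and Sirt6. The mean read number per library of the 53 genes was between 227 and 10048, and the lowest single value was 135 reads.

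**Figure D3:**
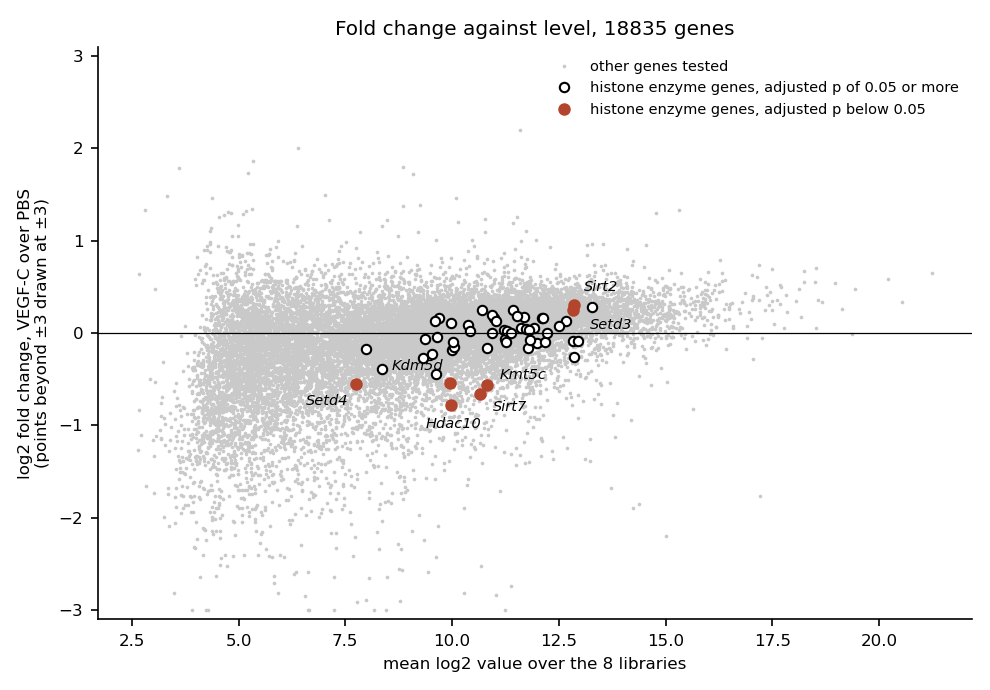
Log2 fold change of VEGF-C over PBS (y axis) against the mean log2 value over the 8 libraries (x axis) for all 18835 genes, with the 53 histone enzyme genes drawn as circles. The 5 lower genes that passed lie between -0.78 and -0.54, and the 2 higher ones, Sirt2 and Setd3, at 0.30 and 0.25 among the more abundant of the 53.

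Variation between hearts within a group had a common form. PBS replicate 3 was the lowest of the PBS libraries in 30 of the 53 genes (56.6%), against 29.3% of all genes, and VEGF-C replicate 4 was the highest of the VEGF-C libraries in 27 (50.9%), against 28.9% of all genes. Kmt2e, which shares exonic bases with the opposite-strand gene Srpk2, had 3556 normalized reads in PBS replicate 3 while the remaining PBS libraries had 4389 to 4645, and 6107 in VEGF-C replicate 4 against 4206 to 4627. The SD of the log2 values had a median of 0.12 in each group (0.116 in VEGF-C and 0.118 in PBS), below the 0.175 and 0.191 of all genes. All genes include some with fewer reads than any of the 53, and the comparison was not matched for level. Without PBS replicate 3, 7 genes of the 53 passed (10.6% of all genes did), all lower: Sirt4 and Kmt2d passed and Sirt2 and Setd3 did not. Without VEGF-C replicate 4, 5 passed (11.2% of all genes).

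**Figure D4:**
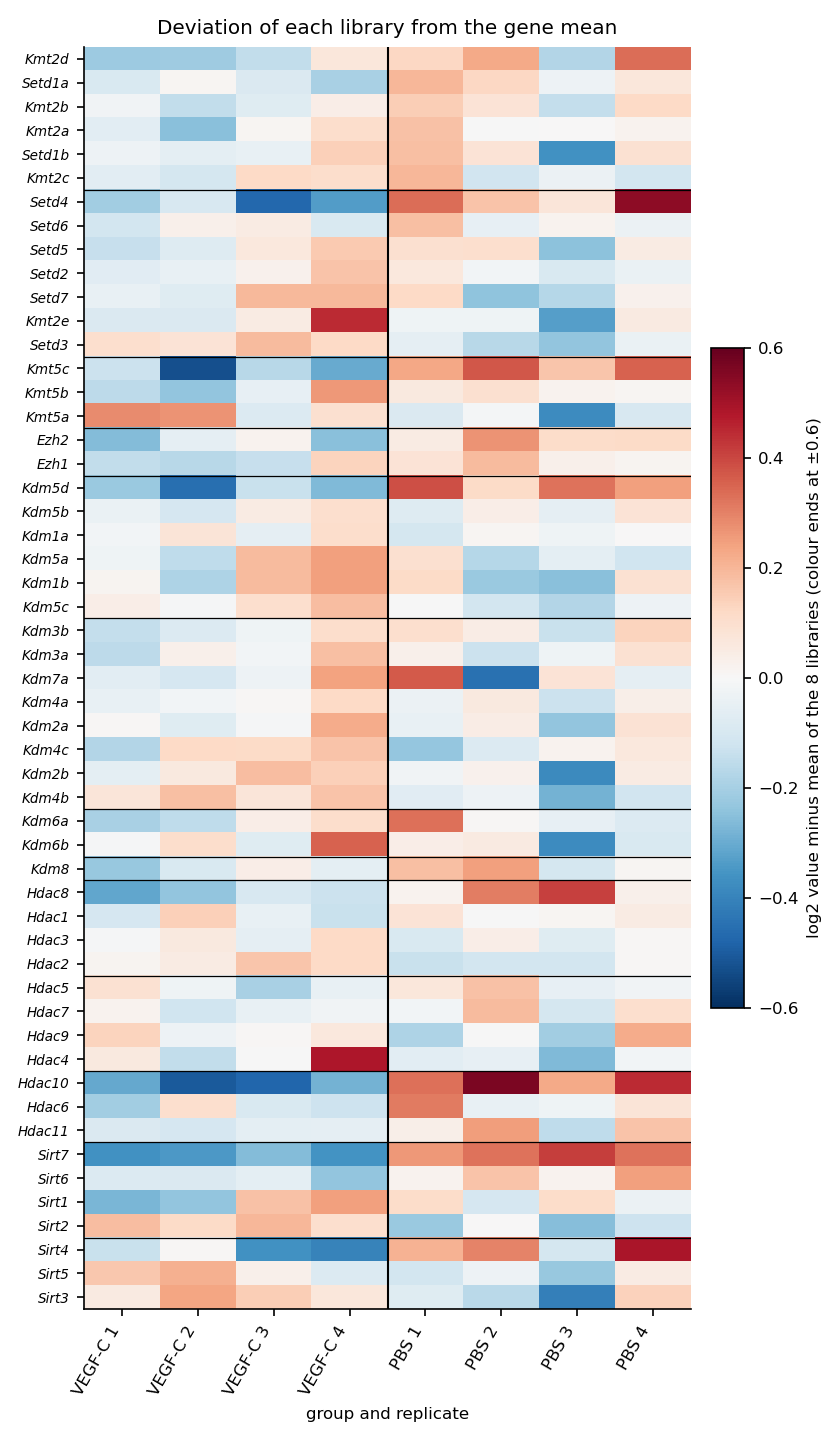
Log2 value of each of the 53 genes (rows, in the order of roles with a line between roles) in each library (columns, VEGF-C on the left and PBS on the right), minus the mean of the 8 libraries. PBS replicate 3 is the lowest PBS library in 30 rows and VEGF-C replicate 4 the highest VEGF-C library in 27, and the rows of Sirt7 and Hdac10 are of one sign on each side.

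Genes of the complexes and cofactors around these enzymes passed in both directions. Of 122 measured genes in 8 lists, 25 passed (20.5%, against 15.7% of all genes). By direction 17 were higher and 8 lower, against 7.05% and 8.61% of all genes. The lists themselves were not tested. With library totals 24 passed (20.3% of all genes did), but not the same genes: calls of some higher genes were lost, as listed below. Over all genes that scaling gave 19.0% lower and 1.29% higher. Without VEGF-C replicate 3, 16 passed (8.94% of all genes). In the HDAC corepressor list 8 of 28 passed (28.6%, against 15.7% of all genes), 6 higher and 2 lower. Among those higher were the NuRD subunits Mta1 (0.51 ± 0.07) and Gatad2a (0.35 ± 0.07), and the SIN3 complex genes Suds3 (0.33 ± 0.07), Sap18 and Sap30. Rcor2 of the CoREST complex (-0.52) and the NuRD remodeller Chd3 (-0.36) were lower. The corepressor list had a median fold change of 0.13.

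The list around class IIa deacetylases had 5 of 14 genes passing (35.7%, against 15.7% of all genes). All 5 were higher, as were 7.05% of all genes. They were Myocd, the coactivator of serum response factor (0.61 ± 0.11), Dnajb5, a cochaperone that controls HDAC4 export (0.47 ± 0.08), Srf itself (0.46 ± 0.11) and the 14-3-3 genes Ywhae (0.32 ± 0.08) and Ywhaz (0.29 ± 0.06). The summed cardiomyocyte markers were higher in the same hearts, as given above, and their part in these values was not tested. Among acetyltransferases 3 of 12 passed (25.0%, against 15.7% of all genes), all higher, as were 7.05% of all genes. These were Naa60 (0.45 ± 0.08), Kat14 (0.32 ± 0.07) and Kat7 (0.24 ± 0.06).

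PRC2 partners passed in 2 of 11 genes (18.2%, against 15.7% of all genes), both lower: the accessory subunits Phf1 (-0.48 ± 0.09) and Jarid2 (-0.39 ± 0.10). Of the 11 fold changes, 7 were positive and 4 negative, and the list median was 0.14. In the COMPASS list, whose members carry the H3 lysine 4 methyltransferases, 2 of 13 passed (15.4%), both higher: Wdr82 (0.29 ± 0.07) and Men1, which encodes menin (0.34 ± 0.10). Of 17 genes of NAD supply and use, 2 passed (11.8%), both lower: Nmrk1, a nicotinamide riboside kinase (-0.62 ± 0.12), and Parp2, which uses NAD to mark DNA breaks (-0.53 ± 0.09). Nampt, the rate-limiting enzyme of NAD salvage, was at 0.36 and did not pass. Of 19 other lysine methyltransferases, 2 passed (10.5%). The muscle gene Smyd1 was higher (0.32 ± 0.09) and Dot1l, the methyltransferase of H3 lysine 79, lower (-0.38 ± 0.09). Of 8 other JmjC genes, 1 passed (12.5%), Jmjd6, which was lower (-0.28 ± 0.08). Beside each of these lists, 15.7% of all genes passed, 7.05% as higher and 8.61% as lower. The calls of Men1, Smyd1, Jmjd6 and Kat7 were each lost in 6 of the 8 fits without 1 library, that of Jarid2 in 5, those of Dot1l and Ywhae in 4 and those of Wdr82 and Kat14 in 1. With library totals the calls of Wdr82, Men1, Gatad2a, Suds3, Ywhaz, Ywhae, Kat14, Kat7 and Smyd1 were lost. Those of Men1, Kat7 and Smyd1 were also lost with upper-quartile factors, and those of Men1, Kat7, Smyd1, Jarid2, Jmjd6 and Dot1l with no variance trend.

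**Figure D5:**
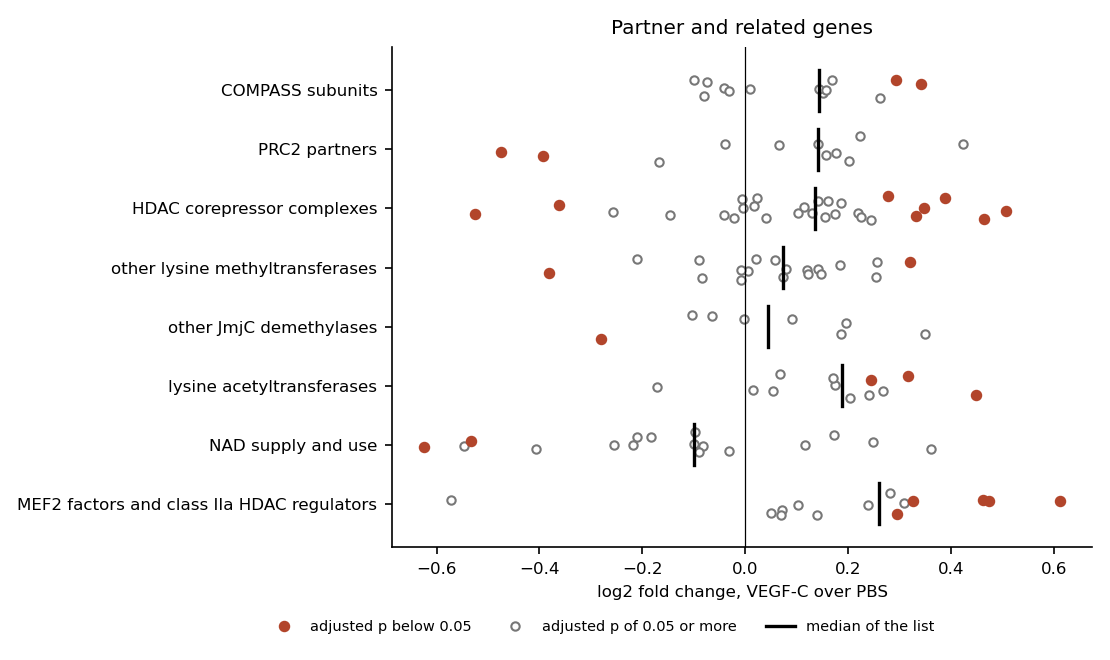
Log2 fold change of VEGF-C over PBS (x axis) of 122 partner and related genes in 8 lists (rows); filled points passed an adjusted p of 0.05 and black bars are list medians. The medians run from -0.10 in the NAD list to 0.26 in the MEF2 and class IIa regulator list.

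Some of the 53 genes share exonic bases with neighbours, in 22 of them by GENCODE M21, and no source used here gives the strand setting of the counting. Of those that passed, Sirt7 shares 124 bases (2.41% of its exonic length) with Mafg on the same strand, which had a fold change of -0.14 ± 0.07, and Sirt2 shares 42 bases with Nfkbib on the opposite strand (0.17 ± 0.12). Setd4 shares 60 bases with an antisense transcript without values. The calls of Sirt7, Hdac10, Kmt5c and Kdm5d were kept when any 1 of the 8 libraries was left out and under every other alternative run.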

How the data were processed

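Total RNA of heart tissue with a RIN above 8.0 was made into stranded mRNA libraries and sequenced on an Illumina NovaSeq 6000, per the labels' protocols. The submitters' processing notes name DESeq2 1.38.3, featureCounts, Subread 2.0.1, STAR 2.7.10a and Trim Galore 0.6.10, and GRCm39 as the genome build; no source used here states the annotation release or strand setting. Of 56941 genes listed by the authors, 18835 have values. Expression is deposited as log2 values. Each equals log2(x + 4), x being the reads of a gene over 1 size factor per library: 100% came out as whole reads (tolerance 0.01 reads), and normalized reads are x. The authors' log2 fold changes and adjusted p-values are deposited in the same table.

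Column names give the group and a number not linked to an animal in the labels; these numbers serve as replicate numbers, and each column was taken as 1 animal. Each limma p-value sets the difference between groups against the spread between these libraries, moderated over all genes. limma 3.58.1 (R 4.3.3) was fitted to the log2 values over all genes with treatment as the 1 factor, 6 residual degrees of freedom, a mean-variance trend and two-sided Benjamini-Hochberg adjustment over all genes. Since the size factors are those of a median-of-ratios scaling, changes are relative to the typical gene. The offset of 4 understates changes of genes with few reads. On simulated data with 18835 genes, 3 of 50 genes changed by 0.25 (log2), 32 of 50 changed by 0.5 and 50 of 50 changed by 1 were recovered, with 7 false calls. The simulation changed few genes and gave every gene the same relative spread, while 15.7% of all genes passed in the data. Its shares therefore do not give the recovery in these data, where Sirt2 (0.30) and Setd3 (0.25) passed.

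The genes and lists were chosen with earlier results of these data known. Every gene of the rule is named, with each library's value where it passed or the groups did not overlap; of each partner list up to 4 genes that passed, with the smallest p, are named, and Sap18, Sap30, Rcor2, Chd3, Srf and Nampt were added after their values were seen, as were the libraries' values of Sirt4, Kmt5a and Kmt2d. A few genes that passed are counted but not reported here by name. Of 125 partner genes 122 had values. Exonic lengths, overlaps and gene classes came from GENCODE M21, matched by gene ID for 18472 genes (98.1%). Alternatives were other scalings, a pseudocount of 1, a filter on low levels (a mean of at least 1 CPM of recovered reads), limma-voom on the recovered reads, other variance fits, the authors' adjusted p-values and leaving out each library.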

Additional observations from a re-analysis of the deposited data

Results flagged for a closer look

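In 10 sets of 4 libraries, 1 library lay far from the other 3 of its group on the log2 scale, by the gap to the nearest library over the range of the group (above Dixon's 95% critical value for 4). Chance alone gives such a distance in about 1 of 20 sets, and 146 sets were looked at. Sirt6 was lowest in VEGF-C replicate 4 at 9.30, against 9.45 to 9.48 in the other VEGF-C libraries (ratio 0.8385). Ezh1 was highest in VEGF-C replicate 4 at 11.92, against 11.62 to 11.65 in the other VEGF-C libraries (ratio 0.9004). Kdm2b was lowest in PBS replicate 3 at 9.32, against 9.68 to 9.75 in the other PBS libraries (ratio 0.8406). Kdm4c was lowest in VEGF-C replicate 1 at 9.80, against 10.09 to 10.15 in the other VEGF-C libraries (ratio 0.8436). Kmt2a was highest in PBS replicate 1 at 12.34, against 12.16 to 12.19 in the other PBS libraries (ratio 0.8697). Setd1b was highest in VEGF-C replicate 4 at 11.52, against 11.32 to 11.34 in the other VEGF-C libraries (ratio 0.8605). Setd5 was lowest in PBS replicate 3 at 11.99, against 12.28 to 12.33 in the other PBS libraries (ratio 0.8497). Men1 was highest in VEGF-C replicate 3 at 11.20, against 10.99 to 11.01 in the other VEGF-C libraries (ratio 0.8892). Ywhaz was highest in VEGF-C replicate 2 at 13.52, against 13.44 to 13.45 in the other VEGF-C libraries (ratio 0.8882). Ywhae was highest in PBS replicate 1 at 14.35, against 14.10 to 14.14 in the other PBS libraries (ratio 0.8502). VEGF-C replicate 4 was the distant library in 3 of the 10 sets (Sirt6, Ezh1 and Setd1b), PBS replicate 3 in 2 (Kdm2b and Setd5) and PBS replicate 1 in 2 (Kmt2a and Ywhae).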

How the results depend on the processing

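The count of 7 histone enzyme genes was also found with TMM factors, a pseudocount of 1 and limma-voom, was 6 with upper-quartile factors, 8 with the filter, 9 with a robust variance fit, 5 without a variance trend and 10 in the authors' table, and was 20 with library totals. The 2 higher calls became 0 with library totals, upper-quartile factors and no variance trend, and 3 with the robust fit, the filter and the authors' values; the 5 lower calls became 20 with library totals. Role groups with a call, 5 of 13, became 11 with library totals and 8 with the authors' values. Leaving out 1 library gave 4 to 7 calls (0 to 2 higher, 4 to 7 lower), 4 to 7 role groups and 16 to 26 partner genes, the lowest without VEGF-C replicate 3; the count was 4 without VEGF-C replicate 1 or 3. Library totals changed the sign of 22 uncalled genes: Hdac2 (-0.0165), Kdm5c (-0.0325), Sirt5 (-0.0309), Kdm6b (-0.0026), Kdm2b (-0.0275), Kmt2e (-0.0285), Setd7 (-0.0563), Kdm5a (-0.0619), Kdm4c (-0.0767), Kdm1b (-0.0571), Hdac3 (-0.1323), Kdm1a (-0.1343), Kdm2a (-0.1171), Hdac9 (-0.1046), Setd2 (-0.1506), Kdm4a (-0.1580), Kmt2c (-0.1606), Kdm3a (-0.1722), Kdm5b (-0.1868), Setd1b (-0.1864), Kdm7a (-0.1673), Setd5 (-0.1895). Upper-quartile factors changed that of Setd2 (-0.0146), Kdm4a (-0.0221), Kmt2c (-0.0247), Kdm3a (-0.0363), Kdm5b (-0.0510), Setd1b (-0.0504), Kdm7a (-0.0316), Setd5 (-0.0535), TMM factors that of Setd5 (-0.0016), and the authors' values those of Setd1b (-0.0074), Setd5 (-0.0003). Leaving out 1 library changed the sign of Setd2 (-0.0096 to 0.0708), Kdm4a (-0.0043 to 0.0586), Kmt2c (-0.0047 to 0.1024), Kdm3a (-0.0382 to 0.0753), Sirt1 (-0.1316 to 0.0410), Kdm5b (-0.0283 to 0.0387), Setd1b (-0.1154 to 0.0660), Kdm7a (-0.1210 to 0.1508), Setd5 (-0.0800 to 0.0485). None of these had passed, and the cause of the changes was not tested. Over all genes, the tests gave 1328 higher and 1621 lower calls, and 243 and 3572 with library totals. No paired analysis was possible because the column numbers tie to no animal and the labels pair none. With 4 libraries a group, changes under about 0.5 (log2) were often missed in the simulation, whose setting differs from these data as given above.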
